A study of Mus musculus with 12 samples.

Results

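Immediate early transcription factors are the first genes a cell switches on after a stimulus, from pre-existing proteins and without new protein synthesis. The 10 genes described here were taken as a named list: the AP-1 genes Fos, Fosb, Jun, Junb and Jund, the CREB/ATF family gene Atf3, the zinc finger genes Egr1 and Egr2, the nuclear receptor gene Nr4a1 and the small regulator gene Ier2. All 10 were found among the 21135 genes of the table, on 25 rows that were summed per gene symbol. The values come from RNA-seq of microglia, brain-resident macrophages, which were sorted by flow cytometry from mouse midbrain. Animals called KO had the genotype Ppargc1a FF CreER, and controls, called WT, had the genotype Ppargc1a FF. Ppargc1a encodes a coactivator of mitochondrial biogenesis, and the study's design text places its deficiency in microglia. The promoter that drives CreER is not given in the sources used here. MPTP, a toxin of dopaminergic neurons, or PBS was given to both genotypes, and every sample, controls included, was taken 6 weeks after tamoxifen. The groups were thus KO MPTP, KO PBS, WT MPTP and WT PBS, with 3 labelled samples each. No strain, age or pooling of animals is given in the sources used here.

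In the textbook account, kinases of the MAPK pathways phosphorylate CREB and the partners of serum response factor, which sit on the promoters of these genes before the stimulus arrives. Fos proteins bind DNA only as partners of Jun proteins, whereas Jun proteins also pair with one another, so the balance of the families sets which AP-1 dimers can form. In microglia and other macrophages these genes answer danger signals and cytokines, and they are also known to be switched on while tissue is being dissociated.

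The CRE half-site, to which CREB and ATF proteins bind, can be seen in the promoters of members. The promoters of 3 members are shown because Nr4a1 carried the clearest difference between profiles, Atf3 had the highest level and Fos a low one. Each is the stretch of 250 bases that ends at the base before the transcription start, read from RefSeq on GRCm38.p6, with every TGACG or its reverse complement CGTCA in capitals.
Nr4a1, chr15:101266596-101266845, plus strand: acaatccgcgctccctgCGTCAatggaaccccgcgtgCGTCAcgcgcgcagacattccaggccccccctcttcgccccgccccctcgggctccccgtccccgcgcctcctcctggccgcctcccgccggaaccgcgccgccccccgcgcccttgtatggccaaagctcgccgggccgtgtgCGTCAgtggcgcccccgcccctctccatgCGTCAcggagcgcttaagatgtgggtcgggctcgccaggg
Atf3, chr1:191183334-191183583, minus strand: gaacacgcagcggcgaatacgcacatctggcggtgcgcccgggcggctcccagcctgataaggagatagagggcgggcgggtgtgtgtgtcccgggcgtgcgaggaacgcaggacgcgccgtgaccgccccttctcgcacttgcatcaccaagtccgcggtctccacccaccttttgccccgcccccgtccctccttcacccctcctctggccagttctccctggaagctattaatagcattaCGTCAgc
Fos, chr12:85473640-85473889, plus strand: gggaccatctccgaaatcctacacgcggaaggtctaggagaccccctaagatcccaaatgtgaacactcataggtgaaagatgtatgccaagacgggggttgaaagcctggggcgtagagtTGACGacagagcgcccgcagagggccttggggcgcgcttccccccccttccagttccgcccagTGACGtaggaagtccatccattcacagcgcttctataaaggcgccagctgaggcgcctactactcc
The Nr4a1 stretch held 4 half-sites, beginning 233, 213, 69 and 40 bases before the start. The Fos stretch held 2, at 129 and 66 bases, and the Atf3 stretch 1, at 7 bases. Promoters were examined for 8 members, and 6 of them held the half-site, namely Nr4a1, Atf3, Fos, Fosb, Junb and Egr2. Ier2 had no promoter entry and Egr1 was left out of the search, so neither was examined. Among all genes of the promoter table the share was 19.8%. Neither the full CRE, TGACGTCA, which contains the half-site, nor the AP-1 site TGANTCA was found in these windows of the 8 members, against 1.77% and 7.82% of all genes. Of the 8 members examined, only Egr2 had the CArG box, the site of serum response factor, in its windows, against 1.62% of all genes. Both strands were searched throughout. These are matches of letters, and binding was not measured.

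The deposited table held fewer measurements than columns, which bears on every comparison. The values were taken as FPKM, a level scaled to transcript length and to the mapped fragments of the library, on which levels can be compared between genes. Column 3 of each group was 0.1 plus 0.99 times the mean of columns 1 and 2, in all but 1 row over the 4 groups. WT MPTP 2 held 1.02 times the value of WT MPTP 1, with 28 rows departing. KO MPTP 1 stood in the same ratio, 1.02, to KO PBS 2 although the treatments differ, with 46 exceptions. This left 6 separate profiles: KO MPTP 2, KO PBS 1, KO PBS 2, WT MPTP 1, WT PBS 1 and WT PBS 2. The treatment of the profile under KO PBS 2 and KO MPTP 1 is not known, although both labels make it KO. The sources do not say whether the profiles stem from different animals. The p-values therefore reflect the spread among these profiles alone, which may be technical. Column totals lay between 388861 and 434022 FPKM, and read depth is unknown. Ppargc1a was at 0.42 FPKM in KO MPTP 2 with 0.33 and 0.12 FPKM for KO PBS 1 and 2, against 2.72 FPKM in WT MPTP 1 and 5.70 and 6.21 FPKM in WT PBS 1 and 2. In the computed columns it was 0.22 and 0.51 FPKM in KO MPTP 1 and 3 and 0.42 FPKM in KO PBS 3, against 2.83 and 2.95 FPKM in WT MPTP 2 and 3 and 5.60 FPKM in WT PBS 3.

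Macrophage genes were high, with Cd68 at 479 ± 20, Tyrobp at 433 ± 19 and Csf1r at 117 ± 5 FPKM (SD, n = 6 profiles), whereas 7 of 10 homeostatic microglia markers were under 1 FPKM. Of these, Cx3cr1 was at 0.05 and P2ry12 at 0.19 FPKM, and Tmem119 was at 2.02 FPKM. Of 4 border macrophage markers in the table, Pf4, Mrc1 and Cbr2 were at 191, 158 and 9.78 FPKM and Lyve1 was at 0.12 FPKM. The 2 neuronal markers in the table, Syt1 and Tubb3, were at 0 and 0.02 FPKM, and all 5 lymphocyte and all 4 monocyte markers in the table were under 1 FPKM. Of granulocyte markers S100a8 was at 4.52 FPKM, of astrocyte markers Aldh1l1 at 2.91 FPKM and of endothelial markers Flt1 at 86.9 FPKM, and the other members of those lists in the table averaged under 1 FPKM, as did all oligodendrocyte markers in the table. In such bulk samples, fewer cells of a type and less RNA per cell cannot be told apart.

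**Figure D1:**
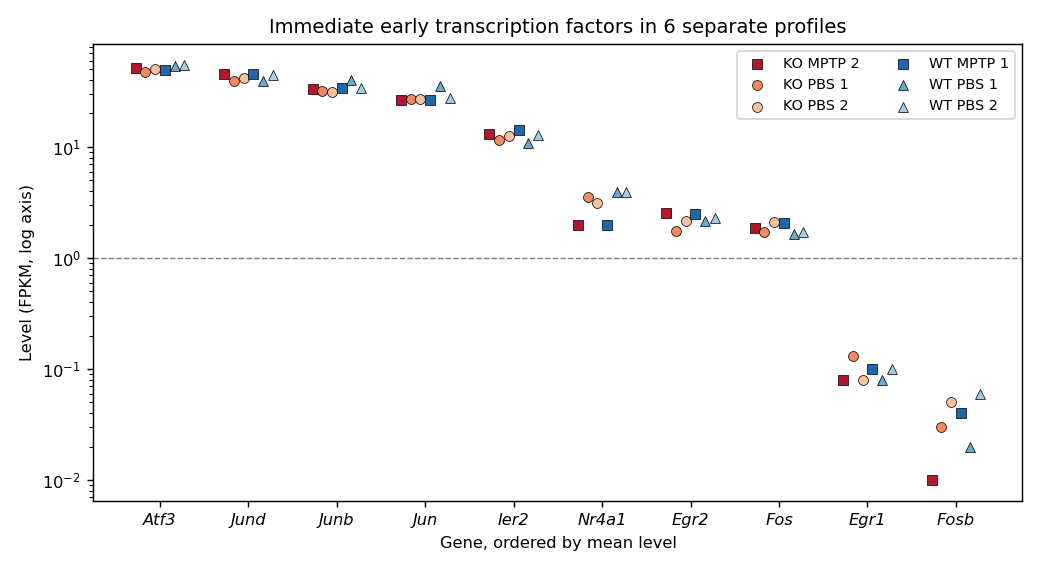
Level of each of the 10 genes in FPKM on a log axis, in the 6 separate profiles; each point is 1 profile, colours and shapes mark the profiles and the dashed line stands at 1 FPKM. Atf3 and the Jun genes lie between 26.4 and 54.96 FPKM, Fos between 1.66 and 2.09 FPKM, and Egr1 and Fosb below 0.2 FPKM.

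The 10 genes fell into 4 levels. Atf3, a stress-induced member of the CREB/ATF family that can repress inflammatory genes, was highest at 50.9 ± 2.8 FPKM (SD, n = 6 profiles), rank 1134 of 21135 genes. The Jun genes followed, with Jund at 42.6 ± 3.0, Junb at 34.1 ± 3.0 and Jun at 28.4 ± 3.6 FPKM. Ier2, which encodes a short-lived nuclear protein, was at 12.5 ± 1.2 FPKM. Lower still were Nr4a1 at 3.08 ± 0.91, Egr2, an EGR factor known in macrophage differentiation, at 2.23 ± 0.29 and Fos, the prototype partner of Jun in AP-1, at 1.85 ± 0.18 FPKM. Egr1, the EGR factor most often used as a marker of acute stimulation, was at 0.10 ± 0.02 FPKM, and Fosb, a Fos relative best known in neurons, at 0.04 ± 0.02 FPKM. The ranges of the neighbours Junb and Jun, of Jund and Junb, and of Nr4a1, Egr2 and Fos overlapped, while Atf3 lay above Jund and Jun lay above Ier2 in all 6 profiles.

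Transcripts of the 3 Jun genes were more abundant than those of the Fos genes. Jun, Junb and Jund together reached 106 FPKM in KO MPTP 2 and 97.9 and 100.2 FPKM for KO PBS 1 and 2, against 106 FPKM in WT MPTP 1 and 115 and 106 FPKM in WT PBS 1 and 2. Fos and Fosb together reached 1.87 FPKM in KO MPTP 2 and 1.76 and 2.14 FPKM for KO PBS 1 and 2, against 2.09 FPKM in WT MPTP 1 and 1.68 and 1.77 FPKM in WT PBS 1 and 2. The ratio of these sums lay between 46.8, in KO PBS 2, and 68.4, in WT PBS 1. The Fos relatives Fosl1 and Fosl2, which also pair with Jun proteins and were added after their values were seen, were higher than Fos, at 6.06 ± 0.23 and 3.94 ± 0.31 FPKM (SD, n = 6 profiles). Over all 4 Fos genes the ratio was much smaller, between 8.11, in KO PBS 2, and 9.38, in WT PBS 1. Atf3 and the 3 Jun genes made up between 88.2% and 90.0% of the summed level of the 10 genes, which was 164 to 176 FPKM in KO and 176 to 187 FPKM in WT profiles.

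Several of these genes were spread over more than 1 row, and what defines a row is not given in the sources used here. One row held 95.05% of Fos, 98.8% of Atf3 and nearly all of Junb, while Jun, Jund, Ier2 and Nr4a1 had 1 row each. The largest row held 86.0% of Egr1, which had 2 rows, and 38.1% of Fosb, which had 5. Egr2 had 6 rows, of which row 1 held 75.1%. That row was at 1.49 FPKM in KO MPTP 2 and at 1.70 and 1.41 FPKM for KO PBS 1 and 2, against 2.01 FPKM in WT MPTP 1 and 1.63 and 1.83 FPKM in WT PBS 1 and 2. Egr2 row 7 was at 0.94 FPKM in KO MPTP 2 and at 0 and 0.61 FPKM for KO PBS 1 and 2, against 0.24 FPKM in WT MPTP 1 and 0 and 0.35 FPKM in WT PBS 1 and 2. In KO MPTP 2, which had the highest summed Egr2, row 7 was highest while the main row was below that of all 3 WT profiles.

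Tests used limma on log2(FPKM + 1) over the 10636 genes that reached 1 FPKM in 3 or more of the 6 profiles, and p-values were adjusted by the Benjamini-Hochberg method, with a gene called when the adjusted p was under 0.05. Fold changes on this scale understate the change of low genes. Egr1 and Fosb did not reach the filter, so 8 of the 10 genes were tested. Genotype and treatment together were compared over 5 profiles, without the one of unknown treatment. In that fit WT PBS had 2 profiles and each other group 1, so the spread of the WT PBS pair stood in for that of the single profiles. The spread used for a gene came mostly from the trend of that pair over all genes. Its own pair gave 1 residual degree of freedom, beside 9.09 prior ones. Errors after fold changes are standard errors.

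Nr4a1, an orphan nuclear receptor that restrains inflammatory gene expression in macrophages, was lower after MPTP in WT cells. Its level was 1.97 FPKM in WT MPTP 1, against 3.89 and 3.95 FPKM in WT PBS 1 and 2. The MPTP value lay far below either PBS value, and the PBS values lay close together. Nr4a1 fell by 0.73 ± 0.10 on the log2 scale (95% interval −0.94 to −0.51; limma, adjusted p = 0.0116), rank 16 of the 10636 genes by p. Nr4a1 was the only one of the 8 tested members called in this comparison, against 0.254% of all tested genes. The call was not stable: leaving out WT PBS 1 or WT PBS 2, with the profile of unknown treatment counted as KO PBS, gave adjusted p = 0.155 and 0.102 (limma). Over the 12 alternatives in which Nr4a1 was tested, the log2 fold change stayed between −0.96 and −0.71, and the adjusted p reached 0.414 (limma). The −0.71 came from taking all 12 columns as libraries, which counts computed columns as replicates. S100a8, a granulocyte gene, also differed between the treatments. It was at 5.76 and 5.75 FPKM in KO MPTP 2 and WT MPTP 1, against 3.81 FPKM for KO PBS 1 and 3.75 and 4.35 FPKM in WT PBS 1 and 2. Like Nr4a1, S100a8 had a row that departed from the arithmetic between columns. The summed granulocyte list ranged from 4.15 to 6.45 FPKM in KO and from 4.13 to 6.25 FPKM in WT profiles, and its part in the Nr4a1 difference was not tested.

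The other 7 tested members were not called in WT. Ier2 was at 14.1 FPKM in WT MPTP 1, against 10.9 and 12.9 FPKM in WT PBS 1 and 2, a log2 fold change of 0.24 ± 0.11. Jun was at 26.6 FPKM in WT MPTP 1, against 35.7 and 27.7 FPKM in WT PBS 1 and 2, a log2 fold change of −0.24 ± 0.12. Most of that difference came from WT PBS 1, since WT PBS 2 lay near the MPTP value. Without WT PBS 1 the log2 fold change of Jun was −0.06. Fos was at 2.05 FPKM in WT MPTP 1, against 1.66 and 1.71 FPKM in WT PBS 1 and 2, a log2 fold change of 0.18 ± 0.10. Fosb was at 0.04 FPKM in WT MPTP 1, against 0.02 and 0.06 FPKM in WT PBS 1 and 2. Egr1 was at 0.10 FPKM in WT MPTP 1, against 0.08 and 0.10 FPKM in WT PBS 1 and 2. Neither of the untested genes thus exceeded its PBS range. Of the 8 tested members 4 had a fold change above 0 and their median was 0.01, beside 73.0% and a median of 0.04 for all genes.

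**Figure D2:**
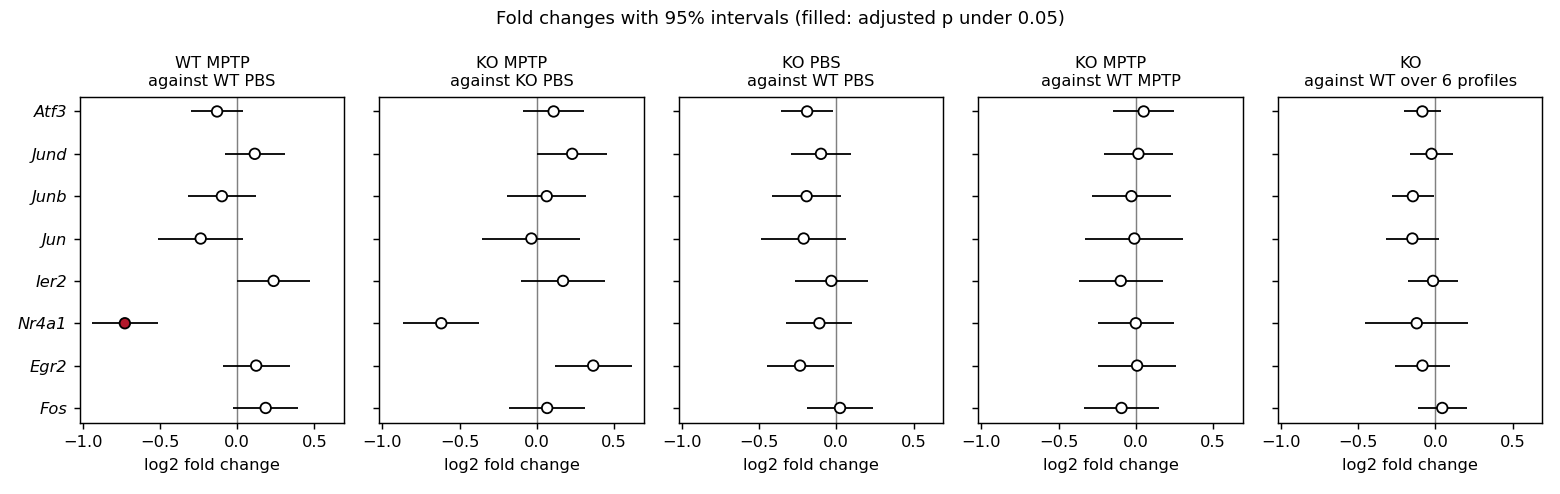
Log2 fold change of log2(FPKM + 1) for the 8 tested genes in 5 comparisons, with 95% limma intervals as bars; filled points have an adjusted p under 0.05. Nr4a1 after MPTP in WT, at −0.73, is the single filled point, and Nr4a1 in KO lies next to it at −0.62.

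The same treatment in KO cells was compared between KO MPTP 2 and KO PBS 1, with 1 profile a group. Nr4a1 was at 1.97 FPKM in KO MPTP 2, against 3.56 FPKM in KO PBS 1, which is a log2 fold change of −0.62 ± 0.11 (95% interval −0.87 to −0.37; limma, adjusted p = 0.0647). The 2 MPTP profiles had the same value to 2 decimals. Egr2 was at 2.53 FPKM in KO MPTP 2, against 1.74 FPKM in KO PBS 1, which is a log2 fold change of 0.37 ± 0.11 (limma, adjusted p = 0.34). With its highest row in place of the sum, the log2 fold change of Egr2 was −0.12. Jund, an AP-1 subunit with steady expression in many tissues, was at 45.8 FPKM in KO MPTP 2, against 38.9 FPKM in KO PBS 1, which is a log2 fold change of 0.23 ± 0.10. The other 5 tested members had log2 fold changes between −0.03 and 0.17. None of the 8 passed the threshold, against 0.291% of all tested genes called (limma). Trimmed-mean (TMM) rescaling called Nr4a1, at −0.70 with an adjusted p of 0.00726 (limma). Of the 8 members 6 had a fold change above 0 and their median was 0.09, beside 86.5% and 0.09 for all genes. Of the 31 genes called in all, 23 were higher and 8 lower, and the split was 32 and 19 with TMM rescaling and 3 and 5 with quantile normalization.

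Nr4a1 was also the only member whose values left the arithmetic relations. In KO MPTP 1, 1.02 times the KO PBS 2 value of 3.13 FPKM would be 3.19 FPKM. The table gave 2.18 FPKM there, lower by 1.01 FPKM and nearer to the 1.97 FPKM of KO MPTP 2. In all, 49 rows in 42 genes departed in this way, and 40 of these genes were among those tested. Such genes made up 18 of the 27 called after MPTP in WT, Nr4a1 included, and 14 of the 31 called in KO. When the profile was counted as KO MPTP with its deposited values, the MPTP fold change of Nr4a1 in KO was −0.57 (limma, adjusted p = 0.055). With the values of KO PBS 2 in their place it was −0.38 (limma, adjusted p = 0.876), and the call in WT was lost, with an adjusted p of 0.0758. The relations do not show how the departing value arose.

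**Figure D3:**
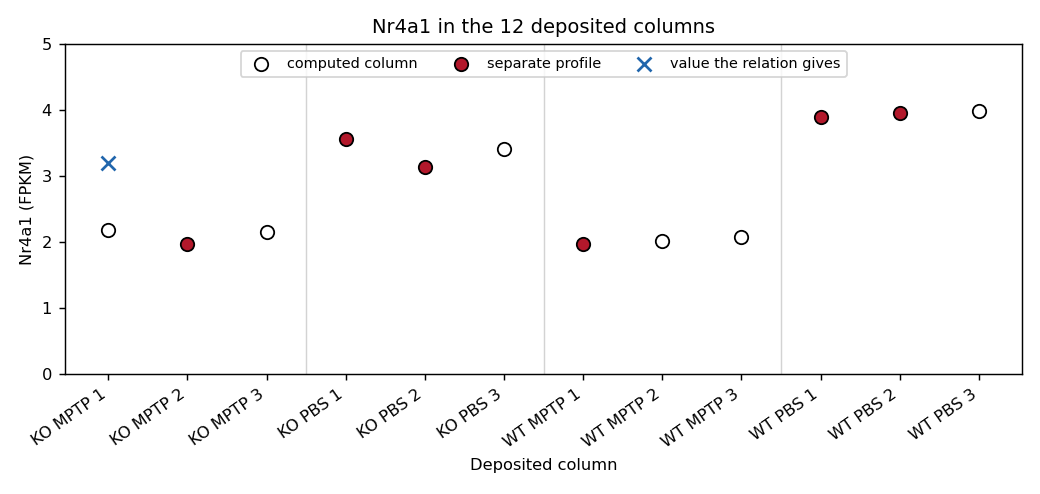
Nr4a1 in FPKM in each of the 12 deposited columns; filled points are separate profiles, open points are columns that follow from others, and the cross is the value that 1.02 times KO PBS 2 gives for KO MPTP 1. The MPTP columns lie between 1.97 and 2.18 FPKM and the PBS columns between 3.13 and 3.98 FPKM, with the cross at 3.19 FPKM.

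Over the 5 profiles of known treatment, MPTP and PBS values did not overlap for 6 of the 8 tested members. Nr4a1 and Jun were lower in both MPTP profiles than in all 3 PBS profiles, against 0.809% of all tested genes. For Jun the gap was small, with 26.4 and 26.6 FPKM in the MPTP profiles KO MPTP 2 and WT MPTP 1, against 27.0 FPKM for KO PBS 1 and 35.7 and 27.7 FPKM in WT PBS 1 and 2. Fos, Jund, Egr2 and Ier2 were higher in both MPTP profiles, a pattern that 28.2% of all tested genes shared. The KO PBS 2 profile, at 2.09 FPKM, had the highest Fos of all and would close that gap if it were PBS. If that profile were MPTP, Jund, Egr2 and Ier2 would overlap between the treatments. They were at 42.0, 2.17 and 12.6 FPKM in it, against 44.2, 2.30 and 12.9 FPKM in WT PBS 2. Atf3 overlapped between the treatments, with 51.0 and 49.2 FPKM in KO MPTP 2 and WT MPTP 1, against 47.3 FPKM for KO PBS 1 and 53.1 and 54.96 FPKM in WT PBS 1 and 2.

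KO PBS was compared with WT PBS for the genotypes without toxin. By the genotypes given, KO animals carried CreER and controls did not. Effects of CreER and of the deficiency thus cannot be told apart in any comparison of KO with WT. Atf3 was at 47.3 FPKM in KO PBS 1, against 53.1 and 54.96 FPKM in WT PBS 1 and 2, a log2 fold change of −0.19 ± 0.08 (limma, adjusted p = 0.909). Egr2 was at 1.74 FPKM in KO PBS 1, against 2.15 and 2.30 FPKM in WT PBS 1 and 2, a log2 fold change of −0.23 ± 0.10, and −0.01 with its highest row. KO PBS 2, left out of this fit, was at 49.8 FPKM for Atf3 and 2.17 FPKM for Egr2, and its Egr2 value lay between the WT PBS values. Again no member passed, against 0.226% of all tested genes called (limma). Of the 8 members 1 had a fold change above 0, beside 22.1% of all genes.

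KO MPTP 2 was compared with WT MPTP 1 for the genotypes under the toxin, with 1 profile a group. Egr2 was at 2.53 FPKM in KO MPTP 2, against 2.51 FPKM in WT MPTP 1, and Nr4a1 was at 1.97 FPKM in each. The 8 fold changes of KO MPTP against WT MPTP lay between −0.10 and 0.05, and their 95% intervals between −0.37 and 0.31. Here 0 members passed (limma, with 0 at an unadjusted p under 0.05), against 0.132% of all tested genes. In that comparison the 14 calls were 7 higher and 7 lower, and the split was 21 and 8 with TMM rescaling and 2 and 5 with quantile normalization.

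The interaction is the MPTP effect in KO less that in WT. It was 0.11 ± 0.15 for Nr4a1 (95% interval −0.22 to 0.44), 0.24 ± 0.12 for Atf3 and 0.24 ± 0.15 for Egr2. For the interaction 0 members passed (limma, with 0 at an unadjusted p under 0.05), against 0.0752% of all tested genes. For Nr4a1, differences in response within that interval could not be told from 0. The 8 calls over all genes all had an interaction above 0, which is a more positive MPTP fold change in KO than in WT. With TMM rescaling 25 calls lay above 0 and 3 below.

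Genotype could be compared over all 6 profiles, since the profile with both treatment labels is KO under either. Junb, an AP-1 subunit that antagonises Jun in many settings, was at 33.4 FPKM in KO MPTP 2 and 31.9 and 31.4 FPKM for KO PBS 1 and 2, against 34.1 FPKM in WT MPTP 1 and 39.8 and 33.7 FPKM in WT PBS 1 and 2. All 3 KO values lay below all 3 WT values, by 0.25 FPKM at the nearest. Junb averaged 32.3 ± 1.1 FPKM in KO and 35.9 ± 3.4 FPKM in WT profiles (SD, n = 3 each), with a two-sided p of 0.1 by exact permutation, which is the smallest possible with 3 against 3. In the fit across all genes the log2 fold change was −0.15 ± 0.06 (95% interval −0.28 to −0.01; limma, adjusted p = 0.997). Junb was the only one of the 8 tested members with KO below WT without overlap, against 7.19% of all tested genes. Without WT PBS 1 its fold change was −0.07, so much of the difference came from that profile. The summed macrophage markers were also lower in KO, at 1496 to 1619 FPKM, against 1619 to 1660 FPKM in WT profiles, and their part in the Junb difference was not tested.

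Between the genotypes no member passed, against 0.0752% of all tested genes called (limma). Junb alone was at an unadjusted p under 0.05, against 3.50% of all tested genes (limma). Jun averaged 26.7 ± 0.3 FPKM in KO and 29.99 ± 4.96 FPKM in WT profiles (SD, n = 3 each), a log2 fold change of −0.15 ± 0.08, and −0.02 without WT PBS 1. Fos averaged 1.89 ± 0.18 FPKM in KO and 1.81 ± 0.21 FPKM in WT profiles (SD, n = 3 each), a log2 fold change of 0.04 ± 0.08. Nr4a1 averaged 2.89 ± 0.82 FPKM in KO and 3.27 ± 1.13 FPKM in WT profiles (SD, n = 3 each), with 1 profile labelled MPTP alone in each genotype setting the low end. Egr1 averaged 0.10 ± 0.03 FPKM in KO and 0.09 ± 0.01 FPKM in WT profiles (SD, n = 3 each). Whether the treatments were balanced between the genotypes depends on the profile of unknown treatment.

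**Figure D4:**
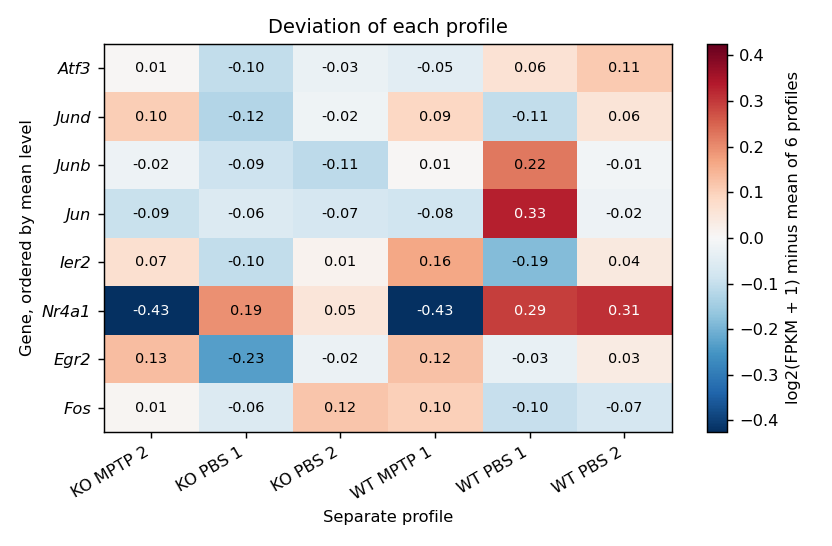
Deviation of log2(FPKM + 1) in each separate profile from the mean of the 6 profiles, for the 8 tested genes (rows) and the profiles (columns); red is above and blue below the mean. Nr4a1 is at −0.43 in both MPTP profiles, and WT PBS 1 stands out with Jun at 0.33 and Junb at 0.22.

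The members did not vary as a block. Of the 28 pairs of tested members, 15 had a Pearson r above 0 over the 6 profiles, which share the same scaling to mapped fragments. Jun and Junb had the highest r, at 0.91, and both were highest in WT PBS 1. Jund and Ier2 had an r of 0.91 and Jund and Egr2 of 0.90, while Jun and Ier2 were opposed at −0.75. WT PBS 1 held the highest Jun, at 35.7 FPKM, and the lowest Ier2, at 10.9 FPKM. The coefficient of variation over the 6 profiles was 29.5% for Nr4a1, above 99.3% of 1764 genes within 1.5 times its level, and 12.8% for Jun, above 98.2% of 1835 such genes. It was lowest for Atf3, at 5.45%, beside a median of 4.57% among 1037 genes of like level.

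The genes most like Fos over the 6 profiles, among 5374 others of at least 10 FPKM, were the predicted gene Gm10131, Pno1 and Nop58, with a Pearson r of 0.99 each. In all, 109 genes had an r over 0.9 with Fos. Most like Egr1 were Clec4d, Ppil3 and Rad23b, with an r of 0.97, 0.90 and 0.88, and 1 gene had an r over 0.9, but Egr1 itself moved only between 0.08 and 0.13 FPKM.

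Of 13 tested genes among the other AP-1 family genes none was called in any of the 6 comparisons (limma, with 0 to 1 genes per comparison at an unadjusted p under 0.05). Among them Atf4, the effector of the integrated stress response, was at 64.8 ± 9.5 FPKM (SD, n = 6 profiles). For this and the next lists, the share of all tested genes at an unadjusted p under 0.05 was 2.69% to 9.24% per comparison (limma). Of the EGR and NR4A relatives only the corepressors of EGR factors, Nab1 at 13.8 and Nab2 at 9.54 FPKM, were tested, and neither was called (limma, with 0 to 1 at an unadjusted p under 0.05). Nr4a2 was at 0.20 and Nr4a3 at 0.03 FPKM, below the filter. Among 22 tested genes of the wider immediate early set none was called (limma, with 1 to 4 per comparison at an unadjusted p under 0.05), with the survival gene Mcl1 at 274 ± 11 and the transcriptional inhibitor gene Id2 at 82.7 ± 8.5 FPKM. The neuronal immediate early genes Arc and Npas4 were at 0.20 and 0.06 FPKM.

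Genes upstream and downstream were taken from lists as well. Beside them, 2.69% to 9.24% of all tested genes per comparison were at an unadjusted p under 0.05 (limma). Of 23 tested kinases and factors upstream none was called in any comparison (limma, with 0 to 2 at an unadjusted p under 0.05), and the MAP kinase gene Mapk3 was at 44.8 ± 2.2 FPKM (SD, n = 6 profiles). Of 18 tested feedback inhibitors none was called (limma, with 0 to 2 at an unadjusted p under 0.05), and the MAP kinase phosphatase genes Dusp3 and Dusp4 were highest, at 55.3 ± 1.6 and 54.6 ± 1.7 FPKM. Of 17 tested genes known as AP-1 or EGR targets, 2 rose and 0 fell after MPTP in WT, against 0.254% of all tested genes called (limma). In KO, with 1 profile against 1, 3 rose and 0 fell, against 0.291% of all tested genes called (limma). They were the cytokine genes Tnf and Il1b in both and the chemokine gene Ccl2 in KO. Tnf was at 3.43 FPKM in WT MPTP 1, against 1.39 and 1.73 FPKM in WT PBS 1 and 2, a log2 fold change of 0.79 ± 0.11. In KO it was at 5.73 FPKM in KO MPTP 2, against 1.45 FPKM in KO PBS 1, which is a log2 fold change of 1.46 ± 0.13. These 3 genes all had rows off the arithmetic relations. Over the 6 comparisons, 1 to 7 of the 17 targets were at an unadjusted p under 0.05 (limma). The median of the target list was 0.12 in WT and 0.06 in KO, beside 0.04 and 0.09 for all genes, and no target was called between the genotypes.

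Heat shock genes are listed with immediate early genes in dissociation signatures. Of 12 tested, 0 were called higher and 1 lower in KO against WT over the 6 profiles, against 0.0752% of all tested genes called (limma). At an unadjusted p under 0.05 there were 6, against 3.50% of all tested genes (limma). None was called in the other 5 comparisons. TMM rescaling and quantile normalization called 0 of all genes between the genotypes over the 6 profiles. Dnaja1, a co-chaperone of HSP70 with a row off the relations, was at 55.5 FPKM in KO MPTP 2 and 54.5 and 57.6 FPKM for KO PBS 1 and 2, against 70.5 FPKM in WT MPTP 1 and 72.8 and 77.7 FPKM in WT PBS 1 and 2. It fell by 0.39 on the log2 scale (limma, adjusted p = 0.00737). The summed heat shock list was 3363 to 3505 FPKM in KO and 3726 to 4253 FPKM in WT profiles, without overlap, and 3 of the 12 genes had a fold change above 0. Among all tested genes, taken singly, 30.5% had a fold change above 0 and 7.19% were lower in KO without overlap. No such share was taken for sums of lists. Hsp90ab1 and Hspa8 were the largest parts of the heat shock sum, at 1372 and 1087 FPKM on average. The inducible Hspa1a and Hspa1b were at 1.20 and 0.38 FPKM. With Fos, Egr1, Fosb, Hspa1a and Hspa1b at or below about 2 FPKM beside Atf3 and the Jun genes above 26 FPKM, the lists did not share 1 level. The part of dissociation in these levels was not tested.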

How the data were processed

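RNA-seq of sorted midbrain microglia was analysed from 1 table of 67355 rows and 12 columns, which the authors deposited. Per the submitters' processing notes, the build was mm9 and the tools were Cufflinks, TopHat, Bowtie 0.12.7 and CASAVA 1.5; what each did is not given. The deposited table names no unit, and its values are treated here as FPKM, the usual output of Cufflinks. Read depth is therefore unknown and no counting interval is given. Rows were summed per symbol after the trailing number was removed. The row with 1 text cell was left out. Of 21135 symbols 20265 matched a reference symbol.

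Columns that follow from others by arithmetic (tolerance 0.0101 FPKM for multiples, 0.00995 FPKM for means) were not counted as replicates. limma 3.58.1 in R 4.3.3 was fitted with a mean-variance trend: 5 profiles with 1 mean per group (1 residual and 9.09 prior degrees of freedom), and 6 profiles with 1 mean per genotype (4 and 13.7). The procedure was tested on simulated data. The members, lists and tests were chosen with earlier results of these data known. All members are named; from other lists, called genes or the 2 of highest mean. Some genes that this rule names are not reported here. Alternatives were another pseudocount (0.1), filters (none, 5 FPKM), scalings, row choice, genes off the relations left out, 12 columns as libraries, the placing of the profile with 2 labels, a replicate block and left-out profiles.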

Additional observations from a re-analysis of the deposited data

How the results depend on the processing

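For WT MPTP against WT PBS, where 1 member was called, 0 members were called without the filter, with quantile normalization, with the highest row per symbol and with the profile of unknown treatment placed in KO MPTP but given its KO PBS 2 values, an alternative chosen after the data were seen. None was called either with a filter at 5 FPKM or with genes off the relations left out, both of which remove Nr4a1. Leaving out WT PBS 1 or WT PBS 2 gave 0 members each time, a range of 0 to 0. With all 12 columns taken as libraries, 5 members were called in this comparison, 1 in KO MPTP against KO PBS, 4 in KO PBS against WT PBS, 1 in the interaction and 1 in KO against WT; that fit counts computed columns as replicates. TMM rescaling called 1 member in KO MPTP against KO PBS. With a replicate block, together with the profile counted as KO PBS, Nr4a1 in WT was at −0.76 (limma, adjusted p = 0.0391), and the number of members called was as without the block in every comparison, with KO MPTP against WT MPTP at −0.27 for Ier2 and 0.17 for Jun; replicate numbers share a correlation of 0.23 over 2 pairs and were not taken as pairing. Of 656 fold changes of single members under alternatives, 579 kept direction and call and 53 uncalled ones changed sign. In addition 6 of Nr4a1 left a reported value of 0, 12 became called and 6 lost their call. The 12 new calls came from the fit with all 12 columns, apart from Nr4a1 in KO MPTP against KO PBS with TMM rescaling. The cause of the other changes was not tested. Counts over all genes, 12 columns aside, ranged from 0 to 40 for WT MPTP against WT PBS (27 reported), 0 to 52 for KO MPTP against KO PBS (31), 0 to 40 for KO PBS against WT PBS (24), 0 to 29 for KO MPTP against WT MPTP (14), 0 to 28 for the interaction (8) and 0 to 71 for KO against WT (8), and with 12 columns they were 2150, 21, 1321, 1539, 127 and 1023 in the same order. Depth is unknown, so what limits values near 0, such as Egr1 and Fosb, cannot be given.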

Other observations

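Ier3, an immediate early gene of the stress response that was picked after its values were seen, had the same profile standing apart as Jun and Junb. It was at 56.8 FPKM in KO MPTP 2 and 64.4 and 56.5 FPKM in KO PBS 1 and 2, against 58.2 FPKM in WT MPTP 1 and 91.3 and 62.1 FPKM in WT PBS 1 and 2. Id2 was likewise highest in WT PBS 1, at 99.1 FPKM, against 76.5 to 84.0 FPKM in the other 5 profiles. One row of Atf3, row 3, was at 1.94 FPKM in KO PBS 1 and 1.44 FPKM in WT PBS 1. In the other 4 profiles that row lay at 0.01 to 0.03 FPKM.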
